A study of Homo sapiens with 3 samples.

Results

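Readthrough genes are gene models that join 2 neighbouring genes, so that 1 transcript runs from exons of the first gene into exons of the second. Each is named after both neighbours, here called its first and second parent in the order of the name. They were taken as every gene name made of 2 names joined by 1 hyphen where both names are also listed as genes. This gave 110 readthrough genes among the 23284 listed genes, with 218 different parents, since MUTED and RAB4B each belong to 2 of them. Their values come from RNA-seq of 293T cells, an established line derived from human embryonic kidney, with 1 library per condition. All 3 libraries come from cells with transient expression of dCas9-VP64, in which a Cas9 mutant unable to cut its target carries a transcriptional activator. They also received the parental guide vector without an L1 guide (mock), sgL1ASP #1 or sgL1ASP #3, guides against the antisense promoter of the retrotransposon L1. The study compared these transcriptomes to find genes that follow the activity of that promoter. With 1 library per condition, differences could not be checked against replicates, and no p-value is given.

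A readthrough transcript arises when RNA polymerase II passes the polyadenylation site of the upstream gene without the RNA being cleaved there, and splicing then joins an upstream exon to an exon of the next gene. The cleavage and polyadenylation machinery and the exonuclease XRN2 normally end transcription after the upstream gene. Some readthrough transcripts encode a fusion of both proteins, and others are degraded. Their exons are mostly those of the parents, so most reads from such a locus fit more than 1 gene model.

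The joints between the parents set a readthrough transcript apart from both parents, besides any exon bases that lie in neither parent. The joints of 6 loci to which the results return are shown here. Coordinates are on GRCh37 (the hg19 sequence) with the transcripts of GENCODE 44, and each pair gives the 2 bases on either side of the removed intron. In PMF1-BGLAP, on the plus strand, an exon of PMF1, a kinetochore protein, is joined to an exon of BGLAP, the bone matrix protein osteocalcin, across chr1:156206274-156212344. In C10orf32-AS3MT, on the plus strand, the joint lies across chr10:104622689-104629562, where C10orf32 encodes a subunit of the BORC complex of lysosomes and AS3MT methylates arsenic. In JMJD7-PLA2G4B, on the plus strand, a hydroxylase gene is joined to a phospholipase A2 gene across chr15:42128749-42132356. In RPS10-NUDT3, on the minus strand, a ribosomal protein gene is joined to a gene for a diphosphoinositol polyphosphate hydrolase across chr6:34309749-34386146. MUTED, a subunit of the BLOC-1 complex of lysosome-related organelles, is the second parent of EEF1E1-MUTED, joined across chr6:8062849-8090419, and the first parent of MUTED-TXNDC5, joined across chr6:7904956-8026600, both on the minus strand. Lower case letters are the last 15 bases of the upstream exon and capitals the first 15 bases of the downstream exon, 5′ to 3′.
PMF1-BGLAP: cagcaggcctggcagGTGCGAAGCCCAGCG
C10orf32-AS3MT: gaaatagaatgacatTGGCTGCACTTCGTG
JMJD7-PLA2G4B: gaggccatggagaagGCAGAGGTGTCCAGG
RPS10-NUDT3: accgaattccagtttGTGCTACTCGTGAGC
EEF1E1-MUTED: cttcatcgctttataATCTTGGAGAAATTC
MUTED-TXNDC5: caggaacgaaaaaagGTGTGGACACTGCCA

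The exons of the readthrough genes were largely those of their parents. Of the 110, 91 were placed on GENCODE 44, 72 under the same symbol and 19 through a RefSeq synonym. The authors' own gene annotation is not given in the sources used here, so the exon comparison describes GENCODE and may differ from the models behind the values. At all 107 loci with both parents placed, the parents lay on the same chromosome and strand, and the first parent was upstream at 104. Where the parents did not overlap, the gap between them had a median of 5176 bases and ran from 141 to 573553 bases (92 loci). In 90 readthrough genes the exons could be compared, and a median of 2.81% of their exon bases lay in neither parent, with a range of 0% to 70.2%. In 29 of the 90 there was no such base, as in C10orf32-AS3MT, EEF1E1-MUTED and MUTED-TXNDC5, so that in these models only reads across a joint separate the readthrough gene from its parents. PMF1-BGLAP had 26 exon bases of its own and RPS10-NUDT3 had 2. JMJD7-PLA2G4B differed from these, with 2924 exon bases in neither parent (37.2%).

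Levels are given as FPKM, mapped fragments normalised to exon length and library size, which is per length and so can be compared between genes. The total read counts are not in the files. The spacing of low values gave an estimated depth of 10400000 reads in mock, 10300000 with sgL1ASP #1 and 8690000 with sgL1ASP #3. Markers of 293T cells were listed at FPKM of at least 1 in every library for 8 of 9 genes, PAX2 being between 0.522 and 0.658, and summed to between 989 and 1088. Of 13 markers of other cells, 10 were under 1 in every library, the sum over the list ran from 8.74 to 11.7, and PTPRC, CD3E, DCN and KRT14 were listed at 0 throughout.

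Readthrough genes were mostly low. As the samples are bulk RNA, fewer cells with a transcript and less of it per cell cannot be told apart. Their median FPKM was 0.31 in mock, 0.218 with sgL1ASP #1 and 0.144 with sgL1ASP #3, against 8, 7.75 and 8.02 for the parents. FPKM was at least 1 for 41, 36 and 39 readthrough genes (37.3%, 32.7% and 35.5%), for 164, 160 and 164 of the 218 parents (75.2%, 73.4% and 75.2%), and for 54.8%, 54.8% and 54.7% of all listed genes. All 110 together summed to 420.8 FPKM in mock, 428.4 with sgL1ASP #1 and 419.3 with sgL1ASP #3. That was 5.48%, 5.5% and 5.28% of the sum over readthrough genes and parents. The total hardly moved between the libraries while single genes did, but it follows the highest genes. BCL2L2-PABPN1 alone had a mean FPKM of 94.7, so the total says little about the low genes.

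By level the 110 fell into 4 classes. In 36 the FPKM was under 0.01 in every library, among them 25 listed at 0 in all 3, and both parents were at least 1 in every library at 15 of these 36 loci. In 29 the FPKM was at least 1 in every library. In 9 it was under 0.01 in at least 1 library and at least 1 in another, a pattern that 0.696% of all listed genes showed, and at all 9 loci both parents were at least 1 in every library. The remaining 36 lay between. The 3 genes BCL2L2-PABPN1, IQCJ-SCHIP1 and PRH1-PRR4 were above both parents in every library, and at the last of these both parents were listed at 0 in all 3 libraries.

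The 8 readthrough genes with the highest mean level among those of at least 1 FPKM in every library differed little between the libraries. BCL2L2-PABPN1, which joins the gene of the survival protein BCL-W to that of the nuclear poly(A)-binding protein, had FPKM 85.1 in mock, 88.4 with sgL1ASP #1 and 111 with sgL1ASP #3. It held 61.8%, 60.8% and 69.1% of the sum over the 3 genes of its locus. SLMO2-ATP5E, whose second parent encodes a subunit of mitochondrial ATP synthase, was at 49.5, 61.8 and 55.5, and HNRNPUL2-BSCL2, whose second parent encodes the lipid droplet protein seipin, at 36.3, 39.6 and 37.5. None of the log2 changes of these 3 was larger than 0.38 in size, below the 0.58 that 1.5-fold amounts to.

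The other members of that group behaved alike. MSH5-SAPCD1, which starts in a meiotic MutS homologue, had FPKM 23.1, 25.4 and 22.8 in mock, sgL1ASP #1 and sgL1ASP #3. RBM14-RBM4, which joins a pair of RNA-binding protein genes, had 24.1, 26.6 and 20.4, and INO80B-WBP1, which starts in a chromatin remodelling subunit, had 17.8, 15.1 and 15.5. NME1-NME2, from a pair of nucleoside diphosphate kinase genes, had 12.9, 12.1 and 11.9, which was 1.04%, 0.937% and 0.921% of the sum at its locus. NME1 and NME2 are close paralogues, and how reads shared by such copies were divided is not given. ARPC4-TTLL3, which runs from an Arp2/3 subunit into a tubulin glycylase, had 11, 11.4 and 13.7.

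**Figure D1:**
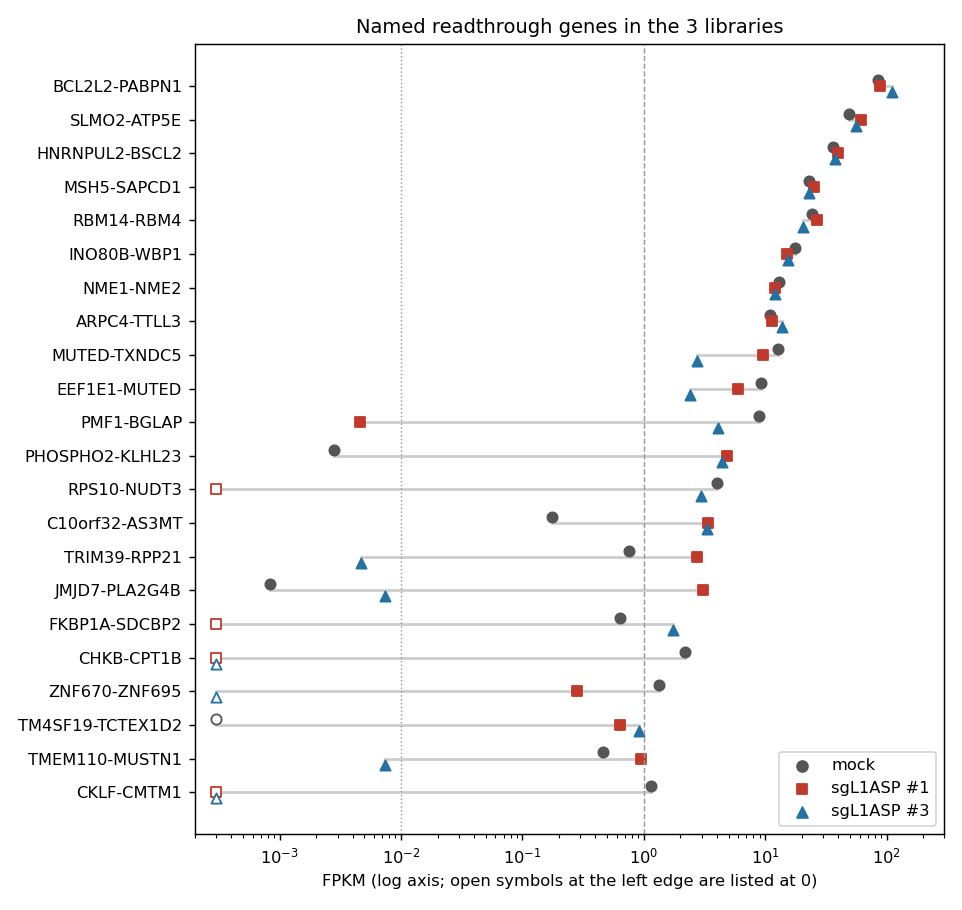
FPKM of the 22 named readthrough genes on a log axis, with a circle for mock, a square for sgL1ASP #1 and a triangle for sgL1ASP #3 (1 library each). Open symbols at the left edge are listed at 0, and the dotted and dashed lines mark 0.01 and 1 FPKM. The 8 genes at the top vary little, and 9 of those below cross from under 0.01 to at least 1.

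The 9 genes that went from near 0 to at least 1 FPKM did so in different libraries. PMF1-BGLAP had FPKM 8.87 in mock, 0.00464 with sgL1ASP #1 and 4.13 with sgL1ASP #3, so it was high in mock, intermediate with sgL1ASP #3 and near 0 with sgL1ASP #1. PHOSPHO2-KLHL23, which joins a phosphatase gene to a kelch-like gene, ran the other way with 0.00282 in mock, 4.87 with sgL1ASP #1 and 4.43 with sgL1ASP #3. JMJD7-PLA2G4B had 0.000826 in mock, 3.1 with sgL1ASP #1 and 0.00742 with sgL1ASP #3, high in sgL1ASP #1 alone.

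RPS10-NUDT3 was the mirror of that pattern, with FPKM 3.97 in mock, listed at 0 with sgL1ASP #1 and 2.98 with sgL1ASP #3. CHKB-CPT1B, from choline kinase beta into a carnitine palmitoyltransferase, had 2.2 in mock and was listed at 0 in both guide libraries. CKLF-CMTM1, from chemokine-like factor into a gene of the same family, had 1.15 in mock and was likewise listed at 0 with both guides. These last 2 genes were above 0 in mock and in neither guide library.

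The last 3 of the 9 were highest in 3 different libraries. TRIM39-RPP21, from a ubiquitin ligase into a subunit of ribonuclease P, had FPKM 0.753 in mock, 2.76 with sgL1ASP #1 and 0.00467 with sgL1ASP #3. FKBP1A-SDCBP2, from a prolyl isomerase into a syntenin gene, had 0.635 in mock, was listed at 0 in sgL1ASP #1 and had 1.73 in sgL1ASP #3. ZNF670-ZNF695, from a pair of zinc finger genes, had 1.34, 0.281 and 0 in mock, sgL1ASP #1 and sgL1ASP #3. Of the 9, 2 were near 0 in mock, 5 with sgL1ASP #1 and 5 with sgL1ASP #3, and 1 gene can count in more than 1 library. Over all listed genes the same counts were 80, 73 and 90.

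The sum over the 3 genes of the locus stayed nearly level at all 9. Its log2 change lay between -0.24 and 0.18 in the 3 comparisons, and 0 of the 9 sums passed 1.5-fold. At the PMF1-BGLAP locus the sum was 96.5 in mock, 91.9 with sgL1ASP #1 and 91.1 with sgL1ASP #3, most of it from PMF1, which was at 85.4, 82.8 and 80.4. A sum dominated by a parent moves little whatever the readthrough gene does, which is measured separately further on.

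Many of the lowest values were less than 1 read could give. For genes with an annotated length above 1000 bases, the estimated depth and the longest GENCODE transcript turn an FPKM into an approximate number of reads. By that estimate PMF1-BGLAP had 74.8 reads in mock, 0.0386 with sgL1ASP #1 and 28.9 with sgL1ASP #3, and JMJD7-PLA2G4B had 0.0606, 225 and 0.453. Of the readthrough genes above 0, 9.26% in mock, 12.5% with sgL1ASP #1 and 16.7% with sgL1ASP #3 were worth under 0.5 of a read (5 of 54, 7 of 56 and 9 of 54). Of the parents it was 0, 2 and 2 of 165, and of all other listed genes 0.109%, 0.0954% and 0.0966%. Counting whole reads once per gene cannot give a value under 1 read, so these values hold fractions of reads. Values above 0 but under 0.01 FPKM were found in 6, 11 and 10 of the 110 readthrough genes (5.45%, 10% and 9.09%), in 0, 2 and 1 of the 218 parents, and in 0.107%, 0.142% and 0.12% of all listed genes.

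Changes were counted as past 1.5-fold on log2(FPKM + 0.1), a scale that understates the change of low genes. In sgL1ASP #1 against mock, 17 readthrough genes were higher, where 4.61% of all listed genes were, and 22 were lower, where 4.69% were, which makes 39 of 110 (35.5%). In sgL1ASP #3 against mock, 13 were higher against a background of 4.38% and 24 lower against 5.18%, which makes 37 (33.6%). In sgL1ASP #1 against sgL1ASP #3, 20 were higher against 5.15% and 14 lower against 4.62%, which makes 34 (30.9%). For both directions together the share over all listed genes was 9.31%, 9.56% and 9.77%. The 3 comparisons share libraries, so they are not independent, and the comparison that has no mock library gave a count within 5 genes of the other two.

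Smaller shares of the parents were past 1.5-fold. Of 218, 21 (9.63%), 29 (13.3%) and 29 (13.3%) were past 1.5-fold in sgL1ASP #1 against mock, sgL1ASP #3 against mock and sgL1ASP #1 against sgL1ASP #3. First parents counted by locus gave 7, 10 and 13 of 110 (6.36%, 9.09% and 11.8%), and second parents 15, 21 and 18 (13.6%, 19.1% and 16.4%). The sum of the 3 genes passed at 5, 5 and 6 of 110 loci (4.55%, 4.55% and 5.45%). The median size of the log2 change was 0.2, 0.195 and 0.159 for readthrough genes, 0.102, 0.113 and 0.121 for parents, 0.067, 0.077 and 0.082 for sums, and 0.071, 0.074 and 0.074 for all listed genes. Among genes with FPKM of at least 1 in every library it was 0.228, 0.24 and 0.264 for the 29 readthrough genes, against 0.091, 0.091 and 0.09 for all 12347 such genes, so the readthrough genes varied more at that level too.

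**Figure D2:**
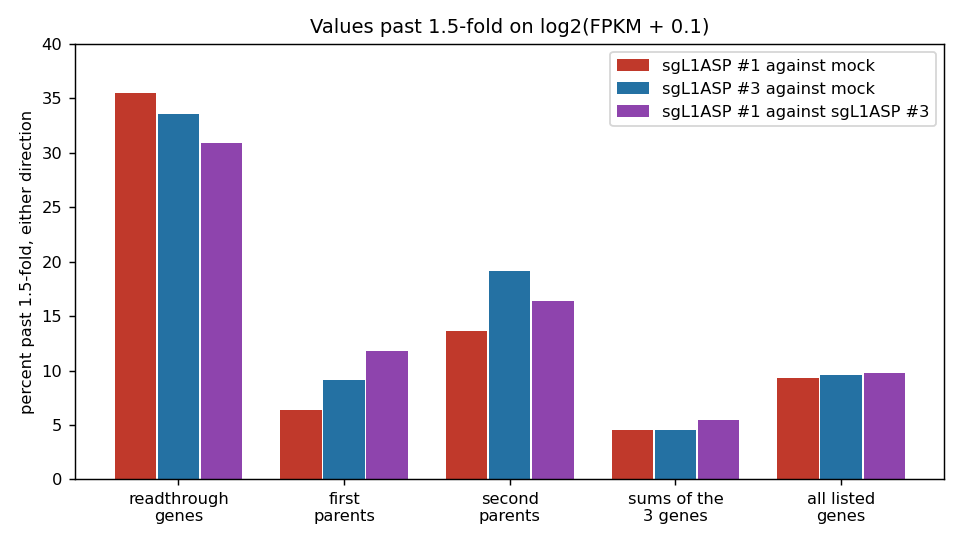
Percent of genes past 1.5-fold in either direction in the 3 comparisons, for the 110 readthrough genes, their first and second parents, the 110 sums and all 23284 listed genes. Bars start at 0 and have no error bars, since there is 1 library per condition. Readthrough genes stand at 30.9% to 35.5% and sums at 4.55% to 5.45%.

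Where a readthrough gene and a parent both changed, the directions were mostly opposite. Of the 39 readthrough genes past 1.5-fold in sgL1ASP #1 against mock, 11 had a parent past it in the opposite direction and 0 a parent in the same direction. In sgL1ASP #3 against mock it was 15 against 2 of 37, and those 2, APOC4-APOC2 and C1QTNF3-AMACR, are also among the 15, with 1 parent on each side, and in sgL1ASP #1 against sgL1ASP #3 it was 11 against 2 of 34. The parent on the opposite side was the second one at 9, 11 and 8 loci and the first one at 3, 5 and 4, and both parents were opposite at some. At BLOC1S1-RDH5, whose second parent makes a retinol dehydrogenase, the readthrough gene had FPKM 10.1, 5.26 and 5.67 in mock, sgL1ASP #1 and sgL1ASP #3, and RDH5 had 2.73, 5.19 and 5.29. At RTEL1-TNFRSF6B, from a telomere helicase into a decoy receptor gene, the readthrough gene had 2.3, 1.43 and 0.776, and TNFRSF6B was listed at 0 in mock and had 1.6 and 2.56 with the guides. These 2 loci were chosen after their values were seen.

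On the FPKM scale only the direction of the parent's difference was counted, whatever its size, with no 1.5-fold limit on the parent. Readthrough genes that differed by at least 1 FPKM, a limit chosen after the values were seen, numbered 23 in sgL1ASP #1 against mock, 24 in sgL1ASP #3 against mock and 28 in sgL1ASP #1 against sgL1ASP #3. These shares of 20.9%, 21.8% and 25.5% were near the 22.7%, 22.8% and 23% of all listed genes. The second parent differed in the opposite direction at 19, 21 and 26 of these loci. The first parent did so at 13, 17 and 17, and the parent with the lower mean level at 16, 19 and 22. No matching share over other pairs of genes was computed.

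**Figure D3:**
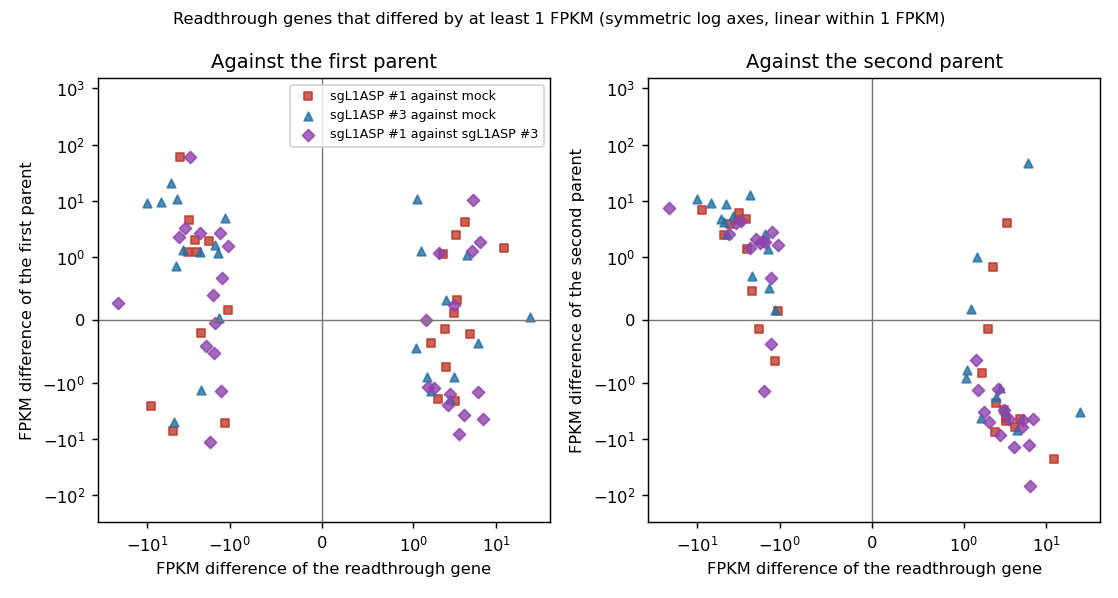
FPKM difference of each readthrough gene that differed by at least 1 FPKM (horizontal axis) against that of its first parent (left) and second parent (right), with squares for sgL1ASP #1 against mock, triangles for sgL1ASP #3 against mock and diamonds for sgL1ASP #1 against sgL1ASP #3. Both axes are logarithmic beyond 1 FPKM and linear within it. At the right, 19 of 23 squares, 21 of 24 triangles and 26 of 28 diamonds lie in the quadrants of opposite sign.

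Single loci are given next. Their readthrough genes were named for a large range or known from earlier results of these data, so they only illustrate the pattern. At PMF1-BGLAP the FPKM of the readthrough gene differed by -8.87 in sgL1ASP #1 against mock, while BGLAP went from 2.27 to 9.15, a difference of 6.88. In sgL1ASP #3 the 2 genes stood at 4.13 and 6.54. BGLAP was thus lowest where PMF1-BGLAP was highest.

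At C10orf32-AS3MT the readthrough gene had FPKM 0.175 in mock, 3.41 with sgL1ASP #1 and 3.32 with sgL1ASP #3, a log2 change of 3.67 and 3.64 against mock. AS3MT had 6.32, 2.06 and 3.13, and C10orf32 had 8.13, 6.04 and 7.21. Both parents were lower with either guide, and the share of the readthrough gene in the locus went from 1.19% to 29.6% and 24.3%. The sum was 14.6 in mock, 11.5 with sgL1ASP #1 and 13.7 with sgL1ASP #3, so it was lower with either guide.

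At JMJD7-PLA2G4B the second parent had FPKM 7.49 in mock, 4.36 with sgL1ASP #1 and 7.42 with sgL1ASP #3. In the library where the readthrough gene was at 3.1, it differed from mock by -3.13. The sum was 15.7, 15.8 and 15.5. At PHOSPHO2-KLHL23 the readthrough gene was higher by 4.87 in sgL1ASP #1 than in mock and KLHL23 went from 18.8 to 14.3, with a sum of 28.7 and 28.9.

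MUTED is shared by 2 readthrough genes, and the 3 genes ranked the libraries in the same or the reverse order. EEF1E1-MUTED, which starts in a component of the aminoacyl-tRNA synthetase complex, had FPKM 9.2 in mock, 5.97 with sgL1ASP #1 and 2.42 with sgL1ASP #3. MUTED-TXNDC5, which ends in a protein disulfide isomerase of the endoplasmic reticulum, had 12.8, 9.65 and 2.73. MUTED itself had 1.44, 5.98 and 10.5, lowest in mock and highest in sgL1ASP #3, the reverse of both. EEF1E1 was at 50.9, 52.2 and 60.4 and TXNDC5 at 100, 106 and 111, so neither outer parent passed 1.5-fold.

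Most readthrough genes past 1.5-fold had no second parent past it in the opposite direction. Such a parent was found for 9 of 39 in sgL1ASP #1 against mock and 11 of 37 in sgL1ASP #3 against mock. In sgL1ASP #1 against sgL1ASP #3 it was 8 of 34. RPS10-NUDT3 went from 3.97 in mock to 0 in sgL1ASP #1. RPS10 was at 456, 516 and 456 and NUDT3 at 21.4, 25.2 and 20.7 in mock, sgL1ASP #1 and sgL1ASP #3. Both parents were thus highest where the readthrough gene was at 0, but within 1.5-fold. RPS10 has processed pseudogenes, so its share of reads is uncertain. At CHKB-CPT1B the parents stood at 50.8, 50.5 and 49.4 (CHKB) and 58.7, 59.1 and 59.4 (CPT1B). TRIM39-RPP21 differed by at most 2.75 FPKM, beside an RPP21 level of 129, 129 and 137. At TM4SF19-TCTEX1D2, from a tetraspan membrane protein into a dynein light chain gene, it was the first parent that was opposite: the readthrough gene was listed at 0 in mock and had 0.633 and 0.922 with the guides, and TM4SF19 had 1.72, 0.00324 and 0.00092. At TMEM110-MUSTN1, which ends in a musculoskeletal gene, the readthrough gene had 0.461, 0.954 and 0.00745 while MUSTN1 had 4.26, 4.6 and 3.29. MUSTN1 was thus highest and lowest in the same libraries as the readthrough gene.

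How far a level sum speaks about the parents was measured by holding them fixed. With both parents kept at the value of the reference library, so that only the readthrough gene moved the sum, 0, 1 and 0 of the 110 sums would have passed 1.5-fold in the 3 comparisons. A low count of sums past 1.5-fold therefore does not by itself measure an exchange between the genes. In a sum over the readthrough gene and its second parent alone, 5 of the 39, 4 of the 37 and 4 of the 34 changed readthrough genes had a changed sum, where 7, 10 and 6 would have with the second parent held. For the changed readthrough genes the median size of the log2 change of the gene itself was between 1.45 and 1.53. It was 0.152, 0.135 and 0.1 for the sum with the second parent, and 0.154, 0.227 and 0.247 with that parent held. Compared with that parent held, the measured sums with the second parent were thus smaller in 2 of 3 comparisons and nearly equal in sgL1ASP #1 against mock. For the sum over all 3 genes the median was 0.068, 0.098 and 0.087, and 0.046, 0.043 and 0.039 with both parents held. The measured sum over all 3 genes was thus the larger in all 3 comparisons. The sums with the second parent alone and those with parents held were added after the data were seen. Values per length from genes of unequal length cannot simply be added as reads.

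Taken by guide, 7 readthrough genes (6.36%) were past 1.5-fold higher with both guides than in mock, where 1.73% of all listed genes were, and 13 (11.8%) were lower with both, where 2.28% were. Among the 7 were C10orf32-AS3MT, PHOSPHO2-KLHL23 and TM4SF19-TCTEX1D2, and among the 13 were PMF1-BGLAP, EEF1E1-MUTED, CHKB-CPT1B, CKLF-CMTM1 and ZNF670-ZNF695. Both comparisons use the same mock library, so a value that is off in mock alone gives a change in the same direction with both guides. Another 5 (4.55%) were past 1.5-fold in opposite directions with the 2 guides, against 0.502% of all listed genes. In all, 52 of the 110 (47.3%) were past it in at least 1 of the 3 comparisons, against 15.8% of all listed genes, and 58 in none.

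Genes that act in ending transcription differed little between the libraries. All 35 listed factors of cleavage, polyadenylation and termination were at FPKM of at least 1 in every library. In each of the 3 comparisons 0 of 35 passed 1.5-fold. Of all listed genes with mean FPKM of at least 1, 3.55%, 3.8% and 3.77% passed, so 0 of 35 is near that share. Their median log2 change was -0.002 in sgL1ASP #1 against mock, 0.002 in sgL1ASP #3 against mock and -0.014 in sgL1ASP #1 against sgL1ASP #3. The 3 that changed most in any comparison were PABPN1, SSU72 and PPP1R10. PABPN1, the nuclear poly(A)-binding protein and also a parent of BCL2L2-PABPN1, had FPKM 34.9, 39 and 31.6 in mock, sgL1ASP #1 and sgL1ASP #3. SSU72, a phosphatase of the polymerase tail, had 58.1, 71 and 60.7, and PPP1R10, a regulator of protein phosphatase 1, had 6.18, 5.34 and 5.5. Whether the division of reads between gene models, the depth or transcription itself moved the readthrough values was not tested.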

How the data were processed

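RNA-seq libraries of 293T cells with dCas9-VP64 and mock, sgL1ASP #1 or sgL1ASP #3 were analysed (1 each). The authors prepared stranded mRNA libraries, used SAMtools 0.1.19, Bowtie2 2.2.3 and TopHat2 2.0.13 to align single-end reads on hg19, and deposited FPKM per gene from Cuffdiff (Cufflinks 2.2.1), which divides reads among overlapping models by estimation. The gene annotation and the scaling between libraries are not given in the sources used here.

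The deposited FPKM were used unscaled and unfiltered. Changes were differences of log2(FPKM + 0.1), called past 1.5-fold. Alternatives were pseudocounts of 0.01 and 1, genes with mean FPKM of at least 1, a 2-fold threshold, rescaling to a sum of 1000000 or to the median ratio, and sums weighted by exon length. Depth was estimated from genes with 1 transcript, taking 200 bases for the fragment; the peaks held 38, 56 and 45 genes. It covers counting error only.

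The readthrough genes and lists were chosen with earlier results of these data known. Named are the 12 with the largest range of log2(FPKM + 0.1), the 8 with the highest mean among those of at least 1 in every library, and 5 known before, 22 in all, and of the termination factors those past 1.5-fold or else the 3 that changed most. Others are said to be chosen after their values were seen. Joints and positions are from GENCODE 44 on GRCh37, with synonyms from RefSeq. The counting was tested on simulated data. Python 3.11.15, NumPy 2.4.6, pandas 2.3.3 and matplotlib 3.10.9 were used.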

Additional observations from a re-analysis of the deposited data

Results flagged for a closer look

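For 5 readthrough genes the change against mock had opposite directions with the 2 guides and was past 1.5-fold with both. That is 4.55% of the 110, against 0.502% of all listed genes. With 1 library per condition this difference between the guides was not tested.

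TRIM39-RPP21 had FPKM 0.753 in mock, 2.76 with sgL1ASP #1 and 0.00467 with sgL1ASP #3, and the log2 difference between sgL1ASP #1 and sgL1ASP #3 was 4.77. With pseudocounts of 0.01 and 1 it was 7.56 and 1.9. TMEM110-MUSTN1 had 0.461, 0.954 and 0.00745, with a difference of 3.29, which became 5.79 and 0.96. Both were higher with sgL1ASP #1 and lower with sgL1ASP #3.

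The other 3 ran the reverse way. FKBP1A-SDCBP2 had FPKM 0.635 in mock, was listed at 0 in sgL1ASP #1 and had 1.73 in sgL1ASP #3, a difference of -4.19 that became -7.44 and -1.45 with those pseudocounts. ZNF559-ZNF177, from a pair of zinc finger genes, had 0.197, 0.0015 and 0.893, with a difference of -3.29 that became -6.3 and -0.92. GJA9-MYCBP, from a connexin gene into a gene for a MYC-binding protein, had 1.53, 0.817 and 2.43, with a difference of -1.46 that became -1.56 and -0.92. At these loci SDCBP2 had 2.75, 3.78 and 1.95, ZNF177 had 2.55, 2.87 and 1.81, GJA9 had 0.473, 0.58 and 0.182, and MYCBP had 17.5, 15 and 13.1. SDCBP2, ZNF177 and GJA9 were highest in the library where their readthrough gene was lowest. RPP21 was too, but within 1.5-fold. MYCBP was not, and MUSTN1 was lowest in the library where TMEM110-MUSTN1 was lowest.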

How the results depend on the processing

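Of 101 counts and medians under an alternative, 58 stayed within 1.5 times the reported one and 43 did not. With a pseudocount of 1, readthrough genes past 1.5-fold numbered 22 and 20 with sgL1ASP #1 and sgL1ASP #3 against mock, where 1.45% and 1.53% of all listed genes passed. Parents then numbered 12, 16 and 13 (sgL1ASP #1 against sgL1ASP #3 last), sums 1, 1 and 2, and opposite changes 5 and 7 in the comparisons with sgL1ASP #1, whose medians were 0.102 and 0.075. With mean FPKM of at least 1, readthrough genes numbered 16, 15 and 18 of 42, where 3.55%, 3.8% and 3.77% of all such genes passed. Parents numbered 12, 14 and 13, sums 1, 1 and 0 and opposite changes 6, 9 and 6, with medians of 0.389, 0.319 and 0.507. Fewer genes were tested there by construction. Of the 42, 29 were at least 1 in every library. Others, such as JMJD7-PLA2G4B, passed the mean filter through a single high library. The filter thus lets in genes that vary, and these counts and medians are not independent of it. At a 2-fold threshold, parents numbered 17 and 15 in the comparisons with sgL1ASP #3, sums 2, 1 and 3 and opposite changes 6, 9 and 5. Rescaling to a sum of 1000000 gave 8 sums in sgL1ASP #1 against mock and shifted the median log2 change of genes with mean FPKM of at least 1 to -0.092, -0.117 and 0.023. Sums with the second parent alone numbered 8, 12 and 10, and with parents held 0, 1 and 0. Counting exactly 0 as near 0 left 5 of the 9 genes. Of 264 log2 changes of named genes under an alternative, 0 reversed among those past 1.5-fold and 58 shifted by more than 1.5-fold, 49 of them with another pseudocount. Apart from the steps built in, the cause of these shifts was not tested. Values under 1 FPKM can rest on few reads at the estimated depths, the fewer the shorter the transcript. In mock, where both were under 1 FPKM, ZNF559-ZNF177 had an estimated 4.66 reads and TMEM110-MUSTN1 had 24.5. No paired analysis was possible because the 3 conditions are single libraries.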
